A study of Mus musculus with 4 samples.

Results

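Rsad2, Cmpk2, Mx1, Mx2 and Bst2 are 5 mouse genes of the antiviral response that type I interferon switches on. They were chosen by position: a locus of the expression table belonged to the set where it carried a transcript ID and overlapped the mm9 window of one of these genes. The rule found 5 loci, 1 per gene, of 17576 loci in all. All 5 reached a mean of 1 FPKM (fragments scaled by transcript length and by library size) over both libraries, as did 10228 loci of the table, which are the loci compared below. No locus without a transcript ID lay in these windows, and no other locus overlapped any of the 5.

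The cells were mouse embryonic fibroblasts (MEFs), fibroblasts grown from embryos, of strain C57BL/6. They carried the H3.3-HA knock-in, in which a cDNA for the tagged histone variant stands in place of the H3f3b gene, so both groups share this allele and there is no unmodified control. One group was naive and the other had been pretreated. Both then received interferon-beta at 100 U/ml for 1 h before polyA RNA was taken. The labels give neither how long the pretreatment lasted nor how long before the last hour it ended. Each group had 1 library, so the spread between replicates is unknown, and an effect of pretreatment cannot be told apart from a difference between 2 cultures or 2 library preparations. The 0 h libraries of the design were not analysed here. RNA left over from the pretreatment and RNA made during the last hour therefore cannot be told apart, and neither can more responding cells and more RNA per cell. No locus outside the 5 was given a symbol, so fibroblast markers and other interferon genes were not checked.

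Type I interferon binds a receptor on the cell surface, and signalling from it activates a transcription factor complex, ISGF3. This complex binds the interferon-stimulated response element (ISRE) in the promoters of many antiviral genes. The products of the 5 genes, where intact, act at different steps of a viral life cycle. Rsad2 encodes viperin, a radical SAM enzyme of the endoplasmic reticulum and lipid droplets that turns CTP into a chain-terminating nucleotide. Cmpk2 encodes a mitochondrial nucleoside monophosphate kinase that acts on CMP and UMP, and so lies close to the supply of viperin's substrate. Mx1 and Mx2 encode dynamin-like GTPases that block viral replication. Bst2 encodes tetherin, a membrane protein that holds budding virus particles at the cell surface.

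The promoters are shown because ISGF3 acts through a short motif that can be looked for in them. The sequences are those of the reference genome and are the same for both groups, which both received interferon-beta. Whether the letters bear on the difference between the groups was not tested. RefSeq promoters on GRCm38.p6 were matched by symbol for 3 of the 5 genes, Rsad2, Cmpk2 and Bst2. Mx1 and Mx2 had no entry in the table used. Each line runs 5′ to 3′ on the strand of the gene, with matches to the ISRE core in capitals. For Rsad2 and Bst2 it is the 250 bases before the start in that table, which is also where the RefSeq gene begins. For Cmpk2 the table's start lies 98 bases inside the RefSeq gene span, and the line holds only the 152 bases before the span.
Rsad2, chr12:26456453-26456702, minus strand: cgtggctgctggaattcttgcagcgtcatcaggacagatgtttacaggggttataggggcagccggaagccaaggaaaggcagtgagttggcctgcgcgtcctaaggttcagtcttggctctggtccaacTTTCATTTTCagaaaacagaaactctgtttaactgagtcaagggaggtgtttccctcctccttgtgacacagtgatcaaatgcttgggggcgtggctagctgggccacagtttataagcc
Cmpk2, chr12:26468965-26469116, plus strand: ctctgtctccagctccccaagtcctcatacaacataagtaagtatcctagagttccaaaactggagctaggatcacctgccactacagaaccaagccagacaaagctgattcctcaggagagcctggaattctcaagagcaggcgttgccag
Bst2, chr8:71537473-71537722, minus strand: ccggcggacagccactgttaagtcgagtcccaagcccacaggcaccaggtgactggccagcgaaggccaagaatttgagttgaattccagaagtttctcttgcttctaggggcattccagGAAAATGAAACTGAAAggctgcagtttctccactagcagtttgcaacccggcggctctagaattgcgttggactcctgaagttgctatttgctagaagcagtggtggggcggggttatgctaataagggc

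The ISRE core was searched as GAAA, any 2 bases and GAAA, on both strands, and the core of the gamma-activated site (GAS), another interferon-responsive element, as TTCNNNGAA, which reads alike on both strands. The Bst2 promoter held 2 ISRE matches, GAAAATGAAA from 130 to 121 and GAAACTGAAA from 124 to 115 bases before the start. They overlap each other, and the first overlaps the only GAS match, TTCCAGGAA, from 136 to 128 bases before the start. The Rsad2 promoter held 1 ISRE match, from 120 to 111 bases before the start, which reads TTTCATTTTC on the strand of the gene and GAAAATGAAA on the other. It held 0 GAS matches. The Bst2 promoter and the Rsad2 promoter thus hold the same 10 letters GAAAATGAAA, in opposite orientation. In the 250 bases before the Cmpk2 start of the table neither motif was found, which says only that these letters are not in this window. Since 98 of those bases lie inside the gene span, the window reaches less far upstream than those of Rsad2 and Bst2. Of 32807 promoters of the same length, 2.97% held at least 1 ISRE match and 0.177% held 2 or more, while 7.02% held a GAS match and 0.329% held both motifs. A match is a description of letters and was not tested for binding.

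**Figure D1:**
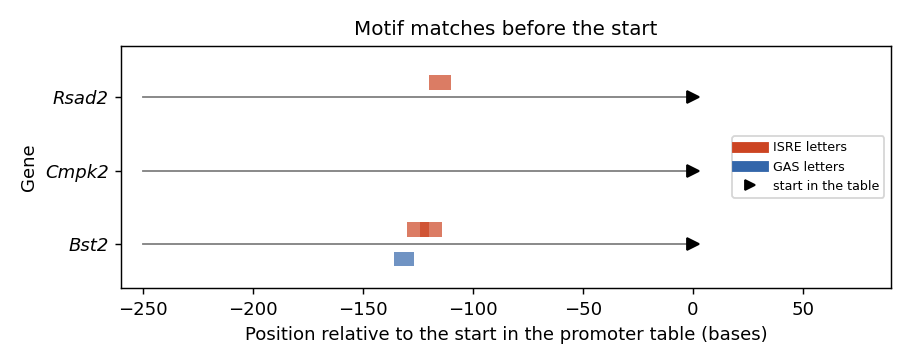
Matches to the ISRE and GAS letters in the 250 bases before the start of Rsad2, Cmpk2 and Bst2 in the promoter table, with position relative to that start on the x axis (bases) and each arrowhead marking a start; for Cmpk2 the last 98 bases lie inside the RefSeq gene span. The ISRE matches of Rsad2 and Bst2 lie between 130 and 111 bases before the start, and Cmpk2 has no mark.

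All 5 genes had higher values in pretreated than in naive cells, each by at least 2-fold on the scale of log2(FPKM + 1), and 4 of the 5, all but Mx2, by at least 4-fold. Among the 10228 loci compared, 2.83% were higher by at least 2-fold in pretreated cells, 0.968% were higher by at least 4-fold, and 7.12% were lower by at least 2-fold. The median change of the 5 genes was 2.31 on this log2 scale, against -0.16 for all loci compared, whose quartiles were -0.51 and 0.17. The summed level of the 5 genes was 65.2 FPKM in the naive library and 590.0 FPKM in the pretreated library, a ratio of 9.04. In the authors' deposited table all 5 were called higher in pretreated cells (q-value below 0.05), as were 3.91% of the loci tested there. These are genes known to respond to interferon, chosen with earlier results of these data in view, so their shared direction is a description and no independent finding.

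**Figure D2:**
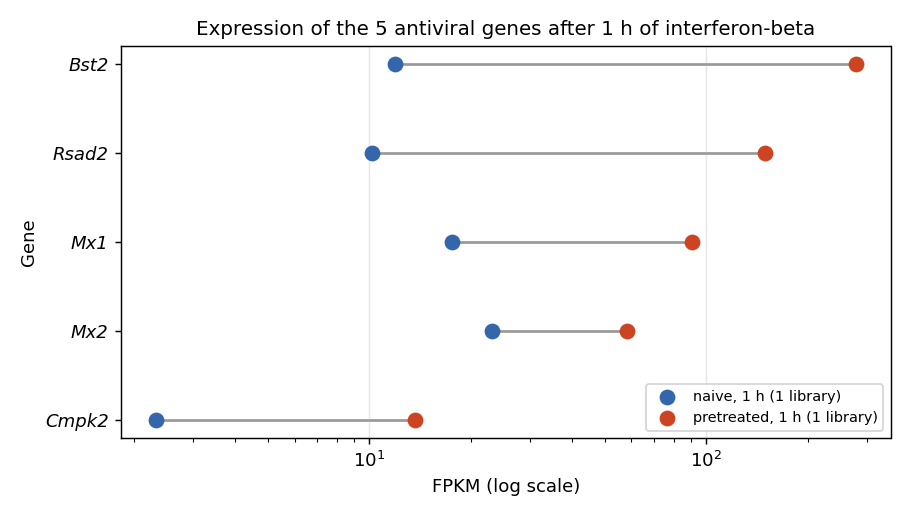
FPKM (x axis, log scale) of each gene (y axis) in the naive and the pretreated library at 1 h, 1 library each, joined by a line. Naive values lie between 2.33 and 23.2 FPKM and pretreated values between 13.7 and 278 FPKM, and each pretreated point lies to the right of its naive point.

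Tetherin showed the largest difference. Bst2 (XLOC_026412 in the table, on chromosome 8 from 74058161 to 74061336 in mm9) had 12.0 FPKM in naive cells and 278 FPKM in pretreated cells. The pretreated level was 23.2 times the naive level, a change of 4.43 in log2(FPKM + 1), which ranked 14 among the 10228 loci compared. Only 5 loci had both a larger change and a higher pretreated level. Bst2 went from the 66.1 percentile of naive levels to the 95.6 percentile of pretreated levels. The gene is on the minus strand, with up to 5 exons in the GENCODE annotation of GRCm38, and it is the shortest of the 5 with a span of 3176 bp.

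Viperin came next. Rsad2 (XLOC_005544, chromosome 12 from 27127486 to 27141317 in mm9, minus strand, up to 7 exons) had 10.2 FPKM in naive cells and 150 FPKM in pretreated cells. This was a ratio of 14.7 and a change of 3.75 in log2(FPKM + 1), which ranked 25. In naive cells Bst2 and Rsad2 stood close together, with a ratio of levels of 1.17, and in pretreated cells Bst2 was 1.85 times as high as Rsad2.

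Cmpk2 lies beside Rsad2 and points the other way. Its locus (XLOC_005060, chromosome 12 from 27154080 to 27164702 in mm9, plus strand, up to 5 exons) begins 12.8 kb beyond the start of Rsad2, with no other locus of the table between them. Cmpk2 had 2.33 FPKM in naive cells and 13.7 FPKM in pretreated cells, a ratio of 5.87 and a change of 2.14 in log2(FPKM + 1), which ranked 90. It had the lowest level of the 5 in both libraries. The members of this pair thus differed in level and in size of change: Rsad2 was 4.37 times as high as Cmpk2 in naive cells and 10.9 times as high in pretreated cells. Whether the 2 changes differ beyond the variation between cultures was not tested, since each group has 1 library.

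Mx1 and Mx2 form the other pair, also with their starts facing each other, 73.2 kb apart on chromosome 16, and again with no other locus between them. In C57BL/6 mice, as in most laboratory strains, both genes are known to be defective: Mx1 carries a deletion that removes coding exons and Mx2 a frameshift. RefSeq lists both as transcribed pseudogenes in this strain, while GENCODE M21 lists Mx1 as protein-coding and Mx2 as a polymorphic pseudogene. The FPKM values below therefore measure RNA and not an antiviral protein.

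Mx1 (XLOC_010328, from 97668642 to 97684513 in mm9, minus strand, up to 15 exons) had 17.6 FPKM in naive cells and 91.0 FPKM in pretreated cells. The ratio was 5.18 and the change 2.31 in log2(FPKM + 1), which ranked 80. Mx2 (XLOC_009923, from 97757688 to 97782508, plus strand, up to 14 exons) had 23.2 FPKM in naive cells and 58.0 FPKM in pretreated cells, a ratio of 2.50 and a change of 1.29, which ranked 201. Mx2 thus showed the smallest change of the 5, and it was the only one under 4-fold.

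The order of the Mx pair differed between the libraries: Mx2 was 1.32 times as high as Mx1 in naive cells, and Mx1 was 1.57 times as high as Mx2 in pretreated cells. The genes are related in sequence, and reads from shared stretches could be assigned to either. Of the distinct 36-base stretches in GENCODE M21 transcripts, 6.00% of those of Mx1 and 6.66% of those of Mx2 occur in the other gene. For Rsad2, Cmpk2 and Bst2 none occur in another of the 5. Stretches found in transcripts of genes outside the 5 made up 1.02% for Mx1, 0.0692% for Rsad2, and 0 for the other 3 genes. How the authors' counting treated reads with several matches is not stated.

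The order of levels among the 5 genes was not the same in both groups. In naive cells it ran Mx2, Mx1, Bst2, Rsad2, Cmpk2 from high to low, and in pretreated cells Bst2, Rsad2, Mx1, Mx2, Cmpk2. FPKM is scaled by length, so levels of different genes were set side by side, with the values taken as RNA-seq. The labels also name another method, as given below, and whether the length scaling suits these libraries was not tested. Mx2 made up 35.6% of the summed FPKM of the 5 in naive cells and 9.84% in pretreated cells, whereas Bst2 made up 18.3% and 47.0%. With 1 library a group, no neighbours in either order can be shown to differ beyond their spread.

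The order of change ran Bst2, Rsad2, Mx1, Cmpk2, Mx2 in log2(FPKM + 1). Mx1 and Cmpk2 changed places when the plain ratio of FPKM values was used, at 5.18 for Mx1 and 5.87 for Cmpk2, since adding 1 FPKM weighs most on the low naive value of Cmpk2. The positions of Bst2, Rsad2 and Mx2 in this order were the same on both scales.

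**Figure D3:**
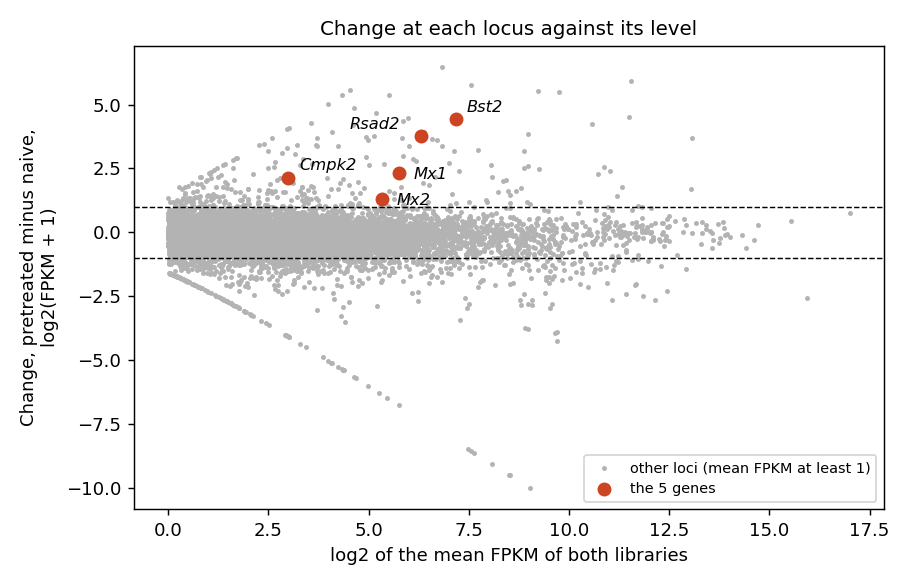
Change between the libraries in log2(FPKM + 1), pretreated minus naive (y axis), against the log2 of the mean FPKM of both libraries (x axis), for the 10228 loci compared, with dashed lines at a 2-fold change. The 5 genes, marked in red, all lie above the upper line, from 1.29 for Mx2 to 4.43 for Bst2.

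The authors' deposited table gives its own test of the reads of these 2 libraries, which says nothing of the spread between cultures. It lists p-values and q-values of 0 for Rsad2, Cmpk2, Mx1 and Bst2, and a p-value of 0.000464 with a q-value of 0.0075 for Mx2. A p-value of 0 is not an exact value: 64 tested loci have one, and the smallest p-value above 0 is 2.22e-16. The largest test statistic with a p-value above 0 is 8.28 in size. In the authors' deposited table the size of the test statistic was 19.0 for Mx1, 12.0 for Cmpk2, 11.7 for Bst2, 11.2 for Rsad2 and 3.50 for Mx2. The gene with the largest statistic, Mx1, was thus not the one with the largest change, and Mx2 was the lowest on both counts. What sets the size of the statistic was not tested.

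The number of reads behind each value is unknown, and only the relative depth could be estimated. At loci listed at 0 in one library, many deposited p-values match those assumed for 1 to 4 reads in the other. If that match holds, it gives the FPKM value of 1 read. At 14 locus lengths compared, 1 pretreated read was then worth more than 1 naive read, by 1.00 to 1.03 on the log2 scale (median 1.02). By this estimate the pretreated library had a depth of 0.492 of that of the naive library. That reading also needs FPKM to have been scaled to the total reads of each library, which is not stated. Only loci whose p-values matched were used. The estimate could not be checked against read counts. Whether depth bears on the values of the 5 genes was not tested.

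The loci with a transcript ID around the genes that reached the minimum level were higher by less than any of the 5 genes, or lower, in log2(FPKM + 1). Within 1000 kb of Rsad2 and Cmpk2, 1 further locus with a transcript ID reached the minimum level, and it was lower in pretreated cells, at 4.12 FPKM in the naive and 1.35 FPKM in the pretreated library. Within 1000 kb of Mx1 and Mx2 there were 3 such loci, with changes from -0.60 to 0.14 in log2(FPKM + 1). The gene-rich stretch around Bst2 held 33, of which 0 were 2-fold higher or lower in log2(FPKM + 1). By the plain ratio of FPKM values 2 of the 33 were at least 2-fold higher and 1 was lower, and after centring on the median change of all loci 4 were higher and 0 lower. Their uncentred changes ran from -0.76 to 0.97, with a median of 0.11, against 4.43 for Bst2 itself. A further 1, 7 and 29 loci with a transcript ID lay in these stretches below the minimum level and were not compared. On the other sides, the nearest loci compared that carry a transcript ID lay 1347 kb from Rsad2 and 1289 kb from Mx1, with changes of -0.92 and -0.36.

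Among loci with a transcript ID at the minimum level, the closest to Bst2 lay 5.49 kb away (XLOC_025745, chromosome 8 from 74066829 to 74071925 in mm9). It stood at 8.08 FPKM when naive and 16.4 FPKM when pretreated, a change of 0.94. The authors' deposited table calls it significant with a q-value of 0.0418. The nearest such locus on the other side of Bst2, 48.2 kb away, stood at 1.84 FPKM when naive and 1.65 FPKM when pretreated, and it was not called.

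**Figure D4:**
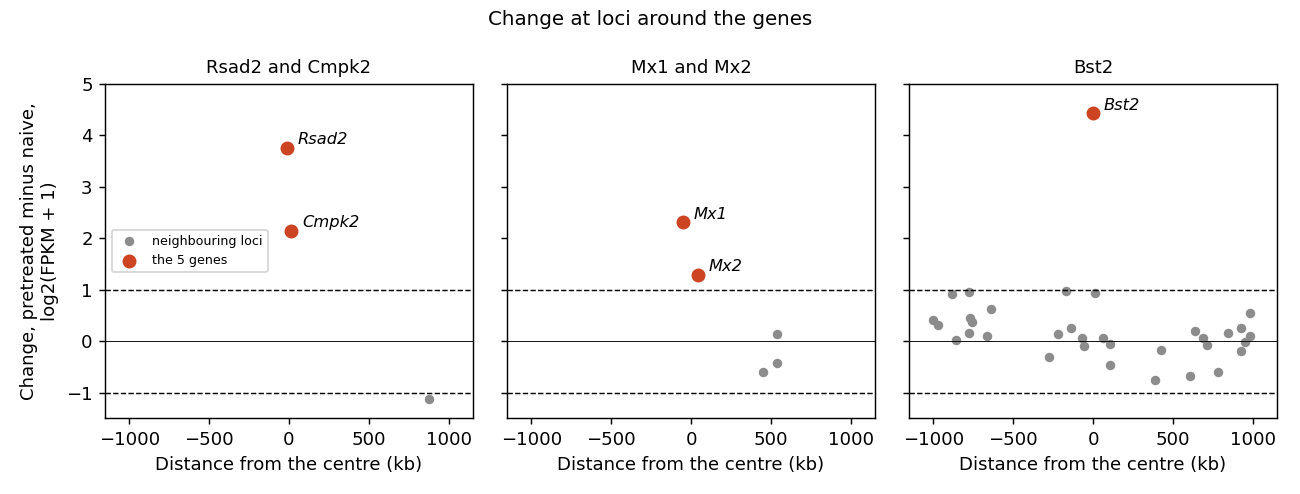
Change in log2(FPKM + 1), pretreated minus naive (y axis), at loci with a transcript ID and a mean of at least 1 FPKM, against the distance from the centre of each gene or gene pair (x axis, kb), with dashed lines at a 2-fold change. The 5 genes (red) lie above the upper line, and 0 of the 37 neighbouring loci (grey) do on this scale.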

How the data were processed

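The members and lists were chosen with earlier results of these data known. The authors deposited 1 table in the layout of a Cuffdiff output, per the file headers, with FPKM for a naive and a pretreated library at 1 h. It also holds a deposited log2 fold change, test statistic, p-value and q-value per locus. Per the submitters' processing notes, TopHat, Cufflinks 1.2.1 and mm9 were used; the annotation, filters and scaling between libraries are not given in the sources used here. The labels also call the samples scTSS-seq, while the series title names RNA-seq; the values were treated as RNA-seq. At the 13009 tested loci checked, which leave out extreme statistics, the deposited p-values are the two-sided normal tails of the test statistic (largest difference 2.86e-06). For the depth estimate, p-values at loci listed at 0 in one library were instead matched to the upper normal tail alone. That tail was taken at the square root of 1 to 4 reads. Value columns were matched to libraries by the sample names in each row.

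Starts were raised by 1, since end minus deposited start gave 15872 bp for Mx1 and 24821 bp for Mx2, the RefSeq lengths of these genes. Spans of Rsad2, Cmpk2 and Bst2 were 101%, 99.1% and 98.7% of the RefSeq spans. RefSeq and GENCODE M21 coordinates are on GRCm38 and were not converted.

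The change is the difference of log2(FPKM + 1), pretreated minus naive, which understates the change of low loci. The 24 loci of status FAIL or HIDATA were left out, and a mean of at least 1 FPKM was required. No test across samples was run, with 1 library per group. Every locus the rule finds is named with both values; neighbours are given by position, within 1000 kb, a distance chosen after seeing the data, as were the other scales tried on them. Counting and motif search were tested on simulated data. Python 3.11.15, pandas 2.3.3, numpy 2.4.6 and scipy 1.17.1 were used.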

Additional observations from a re-analysis of the deposited data

How the results depend on the processing

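All 5 genes were at least 2-fold higher in pretreated cells under a pseudocount of 0.1 FPKM, centring on the median change, no filter on low values, a minimum mean of 5 FPKM, and the plain ratio of FPKM values, an alternative chosen after seeing the data. For the plain ratio, the loci past 2-fold were not counted over all loci, so that count of 5 has no background beside it. At a 4-fold threshold 4 of the 5 passed, all but Mx2. Filters cannot move a gene's own value. The log2 changes ranged from 4.43 to 4.59 for Bst2, 3.75 to 3.91 for Rsad2, 2.31 to 2.47 for Mx1, 2.14 to 2.55 for Cmpk2 and 1.29 to 1.45 for Mx2. Ranks by change moved most with the pseudocount of 0.1, to 36 for Bst2, 60 for Rsad2, 108 for Cmpk2, 124 for Mx1 and 294 for Mx2. Over the 10228 loci compared, 289 were at least 2-fold higher and 728 lower. With no filter on low values the counts were 314 and 868. Filters change the number of loci counted, so the counts under different filters cannot be compared as shares. Of the same 10228 loci, a pseudocount of 0.1 gave 465 higher and 1175 lower, and a 4-fold threshold 99 and 143. A minimum mean of 5 FPKM gave 176 and 452, and among loci with a transcript ID there were 222 and 391. Centring gave 423 higher and 527 lower of these 10228 loci. Under a pseudocount of 0.1 and under centring, more loci thus passed beside the 5 genes than the 289 of the main setting. The minimum, the threshold and the need for a transcript ID remove loci by construction, and dropping the filter adds loci. A smaller pseudocount can only enlarge a change. Centring raises every change by the same amount, since the median change was -0.16. No paired analysis was possible because there is a single library per group, which also means that no replicate could be left out. Reads per gene are unknown, so the counting error of each FPKM value could not be given.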
